A study of Homo sapiens with 6 samples.

Results

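CD44, the cell-surface receptor for hyaluronan, was examined exon by exon in NCI-H1975 cells that overexpressed SAM68 and in control cells. The members are all rows that name CD44 in the 5 deposited rMATS tables, 69 of 78336 listed events. They comprise 48 skipped exons (SE), 18 pairs of mutually exclusive exons (MXE), 2 alternative 3ʹ splice sites (A3SS) and 1 alternative 5ʹ splice site (A5SS), with 0 retained introns (RI). NCI-H1975 is an established line from a human lung adenocarcinoma. Cells received either the PCDNA3.1-SAM68 plasmid, at 2 µg per well, or the PCDNA3.1 plasmid without the insert as control, and RNA was taken after 48 h, with 3 biological replicates per group. No other agent or genotype differed between the groups by the labels, and the overexpression was transient, in a single cell line.

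CD44 pre-mRNA is a classic case of combinatorial splicing. A run of constant exons encodes the ligand-binding part and another run the membrane and cytoplasmic parts, and between them lies a block of variant exons that can be skipped together or kept in many combinations. Transcripts without any variant exon encode the standard form (CD44s), which prevails in mesenchymal cells, and epithelial cells make more of the variant forms (CD44v). SAM68, encoded by KHDRBS1, is an RNA-binding protein of the STAR family that is known from other cells to act on CD44 variant exon v5 when phosphorylated by ERK.

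The exon map was taken from GENCODE 44. CD44 lies on the plus strand of chromosome 11 (GRCh38, 35138882 to 35232402) and has 38 annotated transcripts. The canonical transcript has 18 exons, of which exons 6 to 14 are the variant exons v2 to v10 in order. Exon 5 (35189835 to 35190065) is the last constant exon before the block, and exon 15 (35214852 to 35214914) the first one after it. All 9 variant exons are coding and hold whole codons, from 30 codons in v9 to 68 in v10, so that each can be left out without a shift of frame. In the hg38 sequence, 17 of 17 exon starts after the first exon were preceded by AG and 17 of 17 exon ends before the last were followed by GT, as the coordinates of the tables require.

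The variant exons that the results turn on are shown here 5ʹ to 3ʹ from hg38, plus strand. Capitals mark TAAA or TTAA, A/T-rich letters of the kind SAM68 is known to bind in RNA as UAAA or UUAA. V3 (chr11:35198121-35198246), v6 (chr11:35204512-35204640) and v10 (chr11:35211246-35211449) are the variant exons with the most counted joins from exon 5. V5 (chr11:35201671-35201787) is the exon linked to SAM68 in other cells, v8 (chr11:35208105-35208206) had joins with fewer reads in the SAM68 libraries, and v9 (chr11:35209965-35210054) is the only variant exon that holds such a motif.
v3: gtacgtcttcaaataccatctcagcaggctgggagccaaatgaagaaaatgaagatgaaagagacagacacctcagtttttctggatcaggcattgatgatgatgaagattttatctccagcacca
v5: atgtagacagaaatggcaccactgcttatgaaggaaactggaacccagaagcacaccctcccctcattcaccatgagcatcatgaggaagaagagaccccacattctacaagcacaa
v6: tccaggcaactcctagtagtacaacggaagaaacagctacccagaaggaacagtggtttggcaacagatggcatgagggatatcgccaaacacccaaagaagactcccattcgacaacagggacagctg
v8: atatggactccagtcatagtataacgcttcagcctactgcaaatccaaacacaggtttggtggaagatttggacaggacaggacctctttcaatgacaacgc
v9: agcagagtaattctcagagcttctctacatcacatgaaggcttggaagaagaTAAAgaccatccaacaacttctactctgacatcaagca
v10: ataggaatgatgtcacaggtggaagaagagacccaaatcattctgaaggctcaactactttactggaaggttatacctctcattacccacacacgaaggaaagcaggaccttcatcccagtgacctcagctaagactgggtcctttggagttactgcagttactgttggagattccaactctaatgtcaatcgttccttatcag

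The motifs were counted on the sense strand, with TTTAAA as a longer form that holds both TAAA and TTAA. TAAA was found inside 1 of 9 variant exons, v9, and TTAA and TTTAAA inside 0 of 9. Among exons of tested SE events within 10 nt of the length of v10, 39.0% hold TAAA, and the share was 25.8% for the length of v9. In the 100 nt of intron before the exon, TAAA was found at 5 of 9 variant exons, TTAA at 6 of 9 and TTTAAA at 2 of 9 (v7 and v8), whereas 40.9%, 44.3% and 12.6% of the 38685 exons of all tested SE events hold them there. In the 100 nt after the exon, TAAA and TTAA were each found at 4 of 9, against 42.1% and 41.6% of all these exons, and TTTAAA at 0 of 9 against 12.1%. V10 held none of these motifs inside or within 100 nt on either side, and the 100 nt before v5 held TAAA 2 times and TTAA 4 times.

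Before CD44 itself, KHDRBS1 was checked in every library. Its junction reads were 311, 328 and 316 rpm in control and 1230, 1260 and 1276 rpm in SAM68 libraries, so the groups were far apart. The log2 fold change was 1.98 ± 0.05 (SE; adjusted p = 1.08e-21, limma), and of 10146 genes tested 0.0493% passed the limit of a 2-fold change at an adjusted p under 0.05. Here rpm are the reads of a gene's most deeply read event per 1000000 of such reads, since the tables hold only junction reads. The libraries had 16951876 to 19737729 junction reads over the SE events, and libraries are named by their place in the lists of the tables.

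CD44 junction reads were 388, 393 and 419 rpm in control and 416, 388 and 442 rpm in SAM68 libraries. The values of the groups overlapped. The log2 fold change was 0.05 ± 0.06 (SE), and the adjusted p of 0.758 did not pass the threshold (limma). Over the 6 libraries, the genes with log2 rpm most like CD44 were UMPS (Pearson r = 0.991), SLIRP (0.985) and RFWD3 (0.981) among 6204 genes whose mean reached 100 reads. This is a description of 6 points per gene that share the same libraries and depth.

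**Figure D1:**
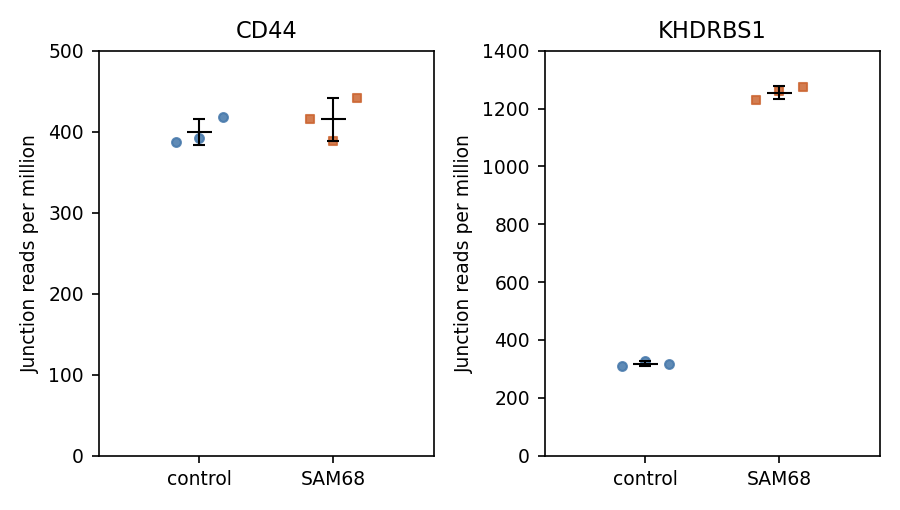
Junction reads per 1000000 (rpm) of CD44 (left) and KHDRBS1 (right) in each control library (circles) and SAM68 library (squares), with the mean and SD of each group as bars. KHDRBS1 was near 319 rpm in control and 1255 rpm in SAM68 libraries, while CD44 stayed between 388 and 442 rpm in all 6.

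Cell type markers give the background for a variant block that is mostly skipped. The mesenchymal filament gene VIM had 4149 ± 83.3 rpm in control and 4135 ± 157 rpm in SAM68 libraries (SD, n = 3 each). The other mesenchymal markers were far lower, CDH2 at 22.9 to 31.6 rpm and ZEB1 at 3.31 to 9.37 rpm. The sum of all 3, between 4067 and 4344 rpm, was thus almost all VIM. Of the 4 epithelial markers, the keratins KRT8 and KRT18 had reads, with a sum of 729 to 991 rpm. EPCAM and CDH1 were not analysed here. KRT8 reached 520 rpm in control library 1 against 229 to 253 rpm in the other 5 libraries. Of the lung markers, NAPSA was at 0 to 0.918 rpm, and NKX2-1 and SFTPB were not analysed here. CD68 had 91.97 to 104 rpm, and PTPRC, COL1A1 and PECAM1 were not analysed here. None of the 6 marker genes tested passed the test between groups, beside 0.0493% of all genes tested. KRT18 did not overlap, with 471, 484 and 492 rpm in control and 521, 524 and 530 rpm in SAM68 libraries (adjusted p = 0.305, limma). Rpm did not overlap for 16.8% of all genes tested.

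Most CD44 reads that left exon 5 went straight to exon 15, the join that makes the standard form. This junction was read 920, 887 and 989 times in control and 1057, 821 and 836 times in SAM68 libraries. Among reads that left the donor of exon 5 through junctions counted on their own, the direct join took 96.5%, 96.1% and 96.8% in control and 95.3%, 97.3% and 96.1% in SAM68 libraries. The groups overlapped, and each library had a 95% Wilson interval that lay within 93.9% to 98.2%. The means were 96.5% ± 0.341 and 96.2% ± 0.989 (SD, n = 3 each), a difference of -0.243 percentage points ± 0.604 (SE; exact permutation test, two-sided, p = 0.7). With 3 against 3 libraries this test cannot go below 0.1. With the reads from exon 5 to v6 added, a count taken by difference, the shares were 95% ± 1.20 and 94.9% ± 0.578. Intervals here cover counting error only, since reads without molecular identifiers are not independent molecules.

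Of the joins from exon 5 that could be counted on their own or by difference, those to v3, v6 and v10 had the most reads after the direct join. Over the 6 libraries 112 reads joined exon 5 to v3, 85 to v6, 64 to v10 and 20 to v8. There were 8 to v4, 5 to v7 and 1 to v9. The join to v2 could not be counted apart from that of v2 to v3, and both together had 33 reads between exon 5 and v3. V6 was entered by 13, 24 and 8 reads in control and 13, 20 and 7 reads in SAM68 libraries. V3 was entered by 12, 17 and 23 reads in control and 29, 18 and 13 reads in SAM68 libraries. V10 was entered by 14, 15 and 6 reads in control and 14, 3 and 12 reads in SAM68 libraries. For each of these 3 exons the groups overlapped.

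**Figure D2:**
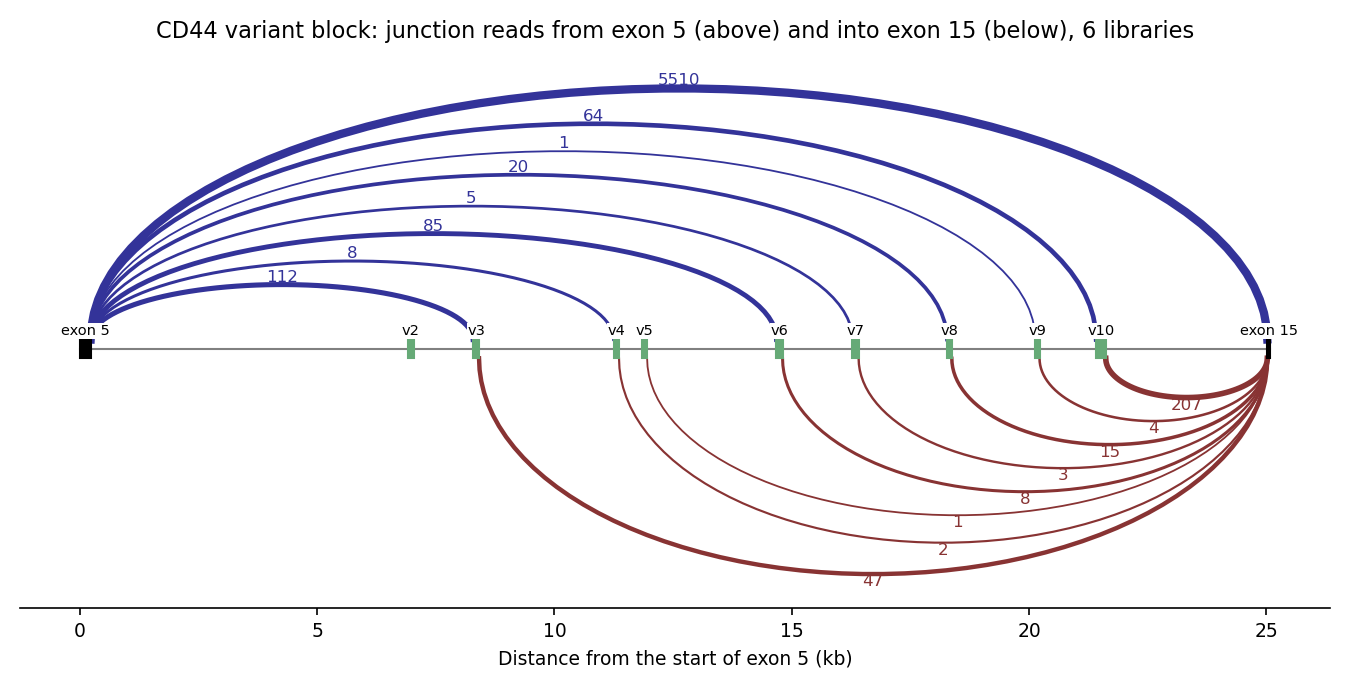
Map of the CD44 variant block, drawn to scale as distance from the start of exon 5 in kb, with constant exons in black and variant exons in green. Arcs above join exon 5 to the exon entered and arcs below join variant exons to exon 15, each labelled with its reads summed over the 6 libraries and drawn thicker with the logarithm of the reads; 5510 reads made the direct join, and the joins to v6 and from v10 were taken by difference.

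Each variant exon was then read against the direct join. PSI, the percent spliced in, is the inclusion count per effective length as a share of both forms. Taken as the single exon between exon 5 and exon 15, v10 had the highest mean, with a PSI of 2.44%, 2.26% and 1.44% in control and 2.27%, 2.55% and 3.63% in SAM68 libraries. Most inclusion reads of v10 were joins to exon 15, 207 against 64 from exon 5, so they do not show v10 as the only variant exon of a transcript. The groups overlapped, with means of 2.05% ± 0.530 and 2.82% ± 0.720 (SD, n = 3 each; ∆PSI 0.769 points ± 0.516, SE; adjusted p = 0.699). The difference was 0.361 points without SAM68 library 3, 0.467 points without control library 3, 1.46 points without length normalization and 3.804 points when all tested SE events of v10 were summed. In control library 3, v3 was above v10, at 1.52%. Over all libraries v3 followed with means of 1.47% ± 0.303 and 1.38% ± 0.312, and v6 with 0.925% ± 0.419 and 0.781% ± 0.401. V8 had 0.426%, 0.505% and 0.284% in control and 0.318%, 0.205% and 0.134% in SAM68 libraries, so the highest SAM68 library overlapped the lowest control library.

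V4, v7 and v9 were near the limit of detection in this position. V4 had inclusion reads in 3 of 6 libraries, v7 in 2 and v9 in 2, and a count of 0 in the other libraries allows a PSI of up to 0.151% to 0.20% (3 reads; counting error only). V9 had 0 reads in each control library and 0, 3 and 1 reads in the SAM68 libraries. In the order of control levels, v10 overlapped v3 and v3 overlapped v6. V6 and v8 were separated by 0.507% against 0.505%, and v8 stood above v4 and v7. In the SAM68 libraries v10 did not overlap v3 and v6 did not overlap v8, while v3 overlapped v6 and v8 overlapped v4. For the 7 exons in this position the two-sided exact permutation p between the groups ranged from 0.2 to 1.

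**Figure D3:**
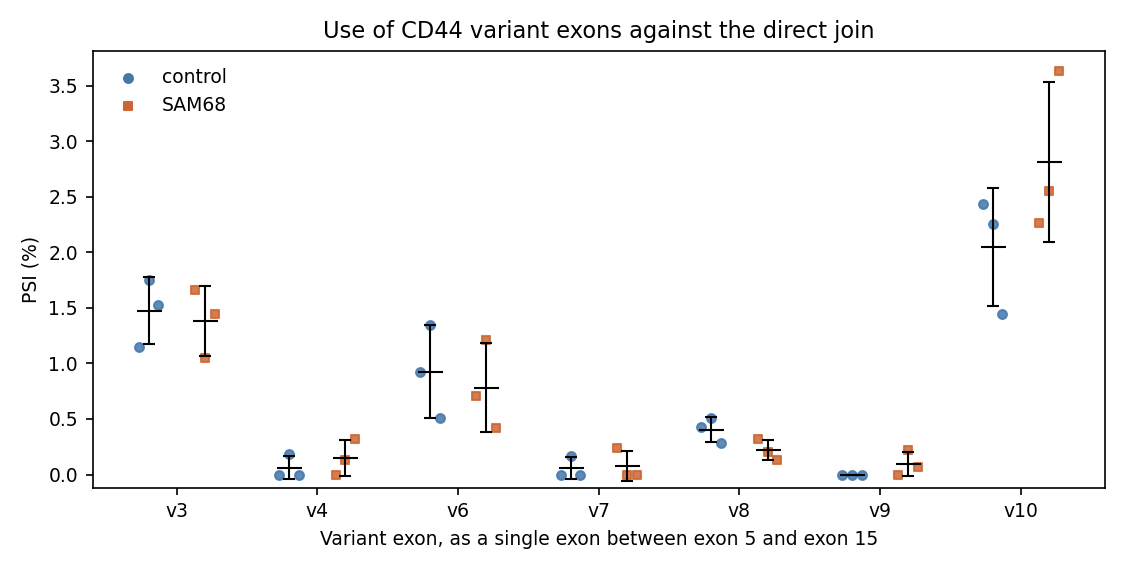
PSI in percent of each variant exon that was listed as a single exon between exon 5 and exon 15, for control (circles) and SAM68 libraries (squares), with mean and SD as bars. All values were below 4%, v10 had the highest mean in both groups, and the groups overlapped for every exon that had reads in both.

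V2 and v5 were listed only beside other variant exons. V2 between exon 5 and v3 had 1, 5 and 7 inclusion reads in control and 10, 1 and 9 in SAM68 libraries. Its PSI was 4.03%, 12.9% and 13.3% against 14.8%, 2.72% and 25.9%, with overlap, and ∆PSI was 4.38 points ± 7.34 (SE; adjusted p = 0.807). V5 between v4 and exon 15 had a mean of 3.17 reads per library and was below the minimum of 10 for the test. Control library 2 had no reads of this event, and reads that skipped v5 after v4 were seen only in SAM68 library 2, where 2 were counted.

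V5 has a pair of acceptors 3 nt apart, and so has v7. The sites are shown with 30 nt each, v5 at chr11:35201656-35201685 and v7 at chr11:35206100-35206129 (hg38, plus strand). Capitals mark the AG of the upstream and of the downstream acceptor.
v5 acceptors: ccatcatcacAGcAGatgtagacagaaatg
v7 acceptors: gcatggtcacAGcAGcctcagctcatacca

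Over both acceptors, v4 was joined to v5 by 3, 0 and 3 reads in control and by 10, 5 and 10 reads in SAM68 libraries. These are 6 and 25 reads in all, and each SAM68 library had more than any control library. Per 10000000 SE junction reads the joins numbered 1.09 ± 0.943 in control and 4.63 ± 1.51 in SAM68 libraries (SD, n = 3 each; p = 0.1 in the two-sided exact permutation test, its lowest). The sum over both acceptors was formed after the values were seen. Reads on this scale did not overlap between groups for 12.4% of the 17396 skipping junctions of all genes with at least 10 reads. Neither acceptor alone separated the groups. The upstream one had 2, 0 and 1 against 0, 4 and 8 reads, and the downstream one 1, 0 and 2 against 10, 1 and 2 reads. For v7, reached from v6, both acceptors together had 2, 3 and 6 reads in control and 0, 4 and 10 in SAM68 libraries, with overlap (exact permutation p = 0.8). The A3SS events of v5 and v7 had means of 5.17 and 4.17 reads and were not tested.

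At the far end of the block, v10 was the variant exon most often joined to exon 15. Taken as the inclusion count less the reads from exon 5 to v10, this junction had 32, 26 and 23 reads in control and 35, 40 and 51 reads in SAM68 libraries. Each SAM68 library had more reads than any control library. Per 10000000 SE junction reads these were 17.7, 13.2 and 12.3 against 17.7, 23.6 and 30.0, with means of 14.4 ± 2.85 and 23.8 ± 6.13 (SD; exact permutation test, two-sided, p = 0.1). The gap between the highest control and the lowest SAM68 library was thus small on this scale. Of 14 junctions in the block with at least 10 reads, 3 did not overlap, beside 12.4% of such skipping junctions of all genes.

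Some joins of v8 had fewer reads in the SAM68 libraries. V8 was joined to exon 15 by 2, 7 and 3 reads in control and 2, 1 and 0 reads in SAM68 libraries. V3 was joined directly to v8 by 3, 3 and 5 reads in control and by 0, 0 and 1 reads in SAM68 libraries, 11 against 1 in all. Scaled to depth, neither junction overlapped between the groups (exact permutation p = 0.1 each, two-sided), though for v8 to exon 15 the nearest libraries, with 2 reads each, were 1.10 and 1.01 per 10000000. Other joins of v8, taken by difference, had more reads in all in the SAM68 libraries, with overlap. V8 to v9 had 11, 3 and 2 against 11, 12 and 5 reads, and v7 to v8 had 1, 3 and 5 against 1, 7 and 11 reads (exact permutation p = 0.3 and 0.4). Of the 8 junctions in the block that are skipping counts of SE events with at least 10 reads over the 6 libraries, these 2 did not overlap on this scale, and among 17396 such junctions of all genes the share was 12.4%. They and the join of v10 to exon 15 were chosen for description after their values were seen.

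Among reads entering exon 15 from a variant exon or from the full exon 5, without the short form of exon 5, variant exons of any kind made up 4.86%, 5.34% and 3.51% in control and 4.08%, 5.41% and 6.90% in SAM68 libraries, with overlap (exact permutation p = 0.4). With the reads from the short form added to the total, a choice made after the values were seen, the means were 4.52% ± 0.931 and 5.38% ± 1.41 (SD, n = 3 each; exact permutation p = 0.4). Among the variant exon reads alone, v10 took 68.1%, 52.0% and 63.9% in control and 77.8%, 85.1% and 82.3% in SAM68 libraries. The 6 values did not overlap between groups. The means were 61.3% ± 8.34 and 81.7% ± 3.69 (SD, n = 3 each), a difference of 20.4 points ± 5.27 (SE; exact permutation test, two-sided, p = 0.1). This share was formed after the values were seen, and it rests on 36 to 62 reads per library. The other variant exons together gave 15, 24 and 13 reads in control and 10, 7 and 11 in SAM68 libraries.

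**Figure D4:**
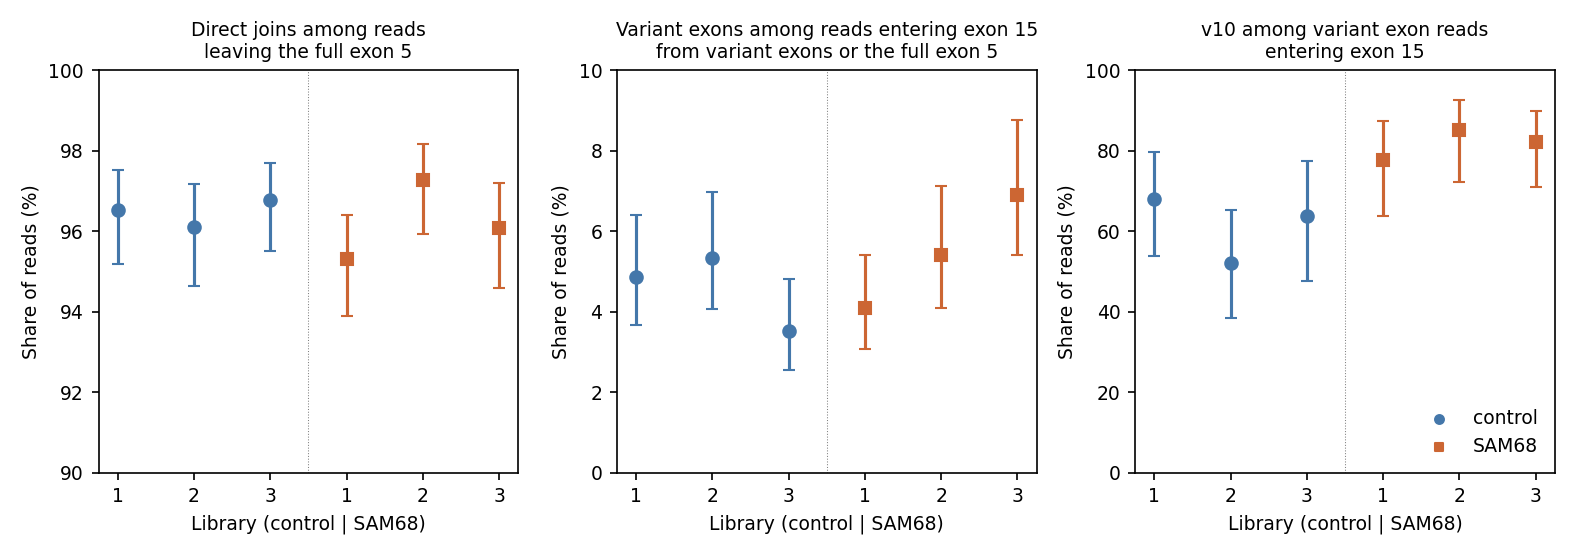
Shares of CD44 junction reads in percent in each library: direct joins among separately counted reads leaving the full exon 5 (left, axis from 90 to 100%), variant exons among reads entering exon 15 from variant exons or the full exon 5, without its short form (middle) and v10 among the variant exon reads entering exon 15 (right), with 95% Wilson intervals as bars. The left and middle panels overlap between groups, and in the right panel the SAM68 libraries lie at 77.8% to 85.1% and the control libraries at 52.0% to 68.1%.

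The event test across all tables put these values against a spread between libraries that was taken as common to all events of a type. It was a quasi-binomial model with adjustment within each type of event, and calls needed ∆PSI of at least 10 points besides an adjusted p under 0.05. Of the 69 CD44 events 51 had a mean of at least 10 reads and were tested, 36 of them in the variant block, and 0 were called. Over all genes 62 of 66395 tested events were called, or 0.0934%. At an unadjusted p under 0.05 there was 1 CD44 event of 51 (1.96%), below the 5.95% of all tested events. PSI did not overlap between groups for 4 of the 51 (7.84%), against 6.13% of all tested events. Their median absolute ∆PSI was 1.59 points, beside 1.24 points over all events.

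The 4 events without overlap all concern v8, v9 and v10. V10 between v8 and exon 15 had a PSI of 88.9%, 65.9% and 79.3% in control and 89.7%, 95.2% and 100% in SAM68 libraries (∆PSI 17 points ± 7.31, SE; p = 0.0404, adjusted p = 0.699 in the quasi-binomial test moderated with limma). The difference was 10.9 points without control library 2 and 10.1 points without length normalization. Its skipping form, v8 joined to exon 15, rested on 12 reads in control and 3 in SAM68 libraries. V8 after the short form of exon 5 had 18.4%, 20.8% and 12.3% against 4.67%, 4.15% and 0% (∆PSI -14.2 points ± 2.92, or -21.7 points without length normalization), and the same v8 reads are its inclusion form. V9 between exon 5 and v10 had 7.82%, 10.6% and 0% against 25.3%, 44.2% and 19.8% (∆PSI 23.6 points ± 8.03), on 5 and 17 inclusion reads. V8 against v10, listed as an exclusive pair between exon 5 and exon 15, had 14.6%, 18% and 16.3% against 12.1%, 7.28% and 3.45% (∆PSI -8.68 points ± 2.69; adjusted p = 0.790). These events share junctions and are not independent of each other or of the junction counts above.

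Further events had large differences in the mean that came from 1 library. V6 between exon 5 and v7 had 100% in all libraries but SAM68 library 1, at 56.7%, where 5 reads joined exon 5 to v7. The same 5 reads set v3 between exon 5 and v7 to 74.7% in that library and 100% in the others. Without SAM68 library 1 both differences were 0, and without length normalization they were -9.26 and -4.90 points in place of -14.4 and -8.42. V4 between a longer copy of v3 and exon 15 had 19.2%, 0% and 13.3% against 30.8%, 100% and 4.64%, where the 100% rests on 2 reads. V8 between v3 and exon 15 had 15.8%, 26.6% and 39.1% against 15.8%, 100% and 4.87% (∆PSI 13.1 points ± 30.8, SE), where the 100% rests on 1 read. The other SAM68 libraries of this event were not above any control library, so its difference turns direction without SAM68 library 2.

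**Figure D5:**
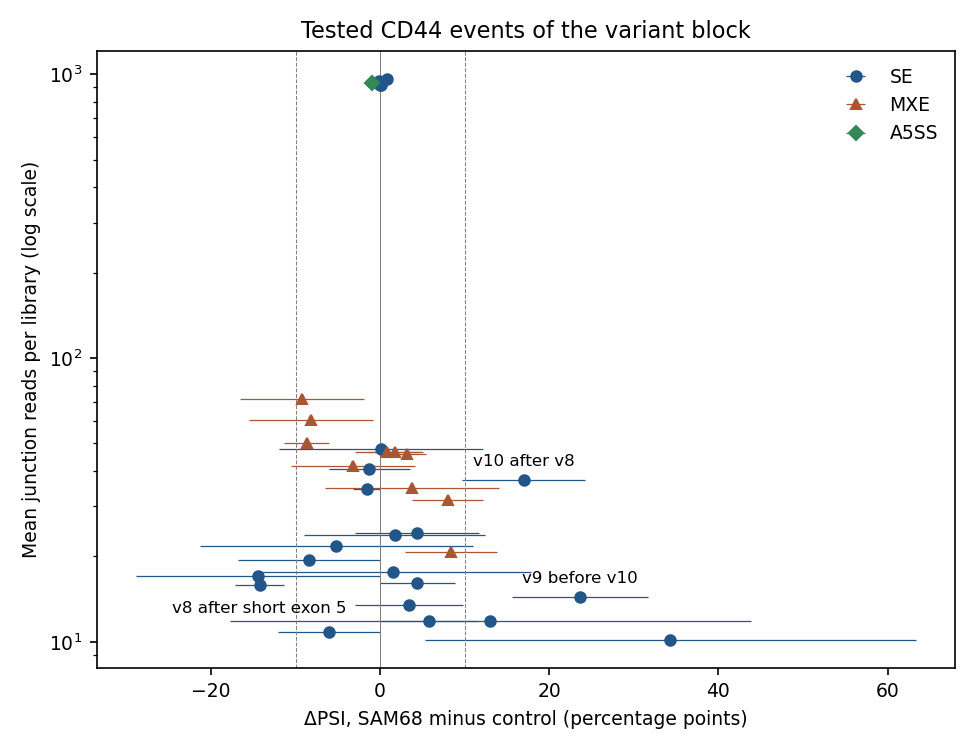
∆PSI in percentage points (SAM68 minus control, with its SE as bars) against mean junction reads per library on a log axis, for the 36 tested CD44 events of the variant block by type. The most deeply read events, against the direct join, lie within 1 point of 0, and the differences beyond 10 points (dashed lines) are in events with fewer than 40 reads.

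Of the 18 events too shallow to test, 17 lie in the block. V7 between v3 and v8 is one of them and had the widest gap between the groups, with a PSI of 25.0%, 40.0% and 33.3% in control and 100%, 100% and 84.6% in SAM68 libraries. It had 7.17 reads per library on average. Inclusion had 2, 4 and 5 against 1, 8 and 11 reads, and skipping, the join from v3 to v8, 3, 3 and 5 against 0, 0 and 1. When the minimum was lowered to 5 reads it was tested and its adjusted p was 0.706, with an unadjusted p of 0.0207. V9 between v8 and exon 15 had 76.6%, 29.8% and 37.2% in control and 59.7%, 88.5% and 100% in SAM68 libraries, with overlap. The means were 47.9% ± 25.1 and 82.8% ± 20.7 (SD, n = 3 each) on 9.33 reads, and its skipping form is again v8 joined to exon 15.

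Exon 5 itself was also listed with an earlier donor, 93 nt upstream. The sequence at chr11:35189963-35190075 (hg38, plus strand) holds both donors, with the GT of each in capitals, and the bases between them are the end of the constant exon that the short form lacks.
exon 5 donors: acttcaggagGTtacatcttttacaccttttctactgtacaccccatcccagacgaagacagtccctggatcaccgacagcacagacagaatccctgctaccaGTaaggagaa

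The short form joined to exon 15 had 5, 15 and 12 reads in control and 23, 13 and 12 reads in SAM68 libraries. It took 0.541%, 1.66% and 1.20% of the direct joins in control and 2.13%, 1.56% and 1.42% in SAM68 libraries, with overlap. The event was tested as A5SS and its adjusted p was 0.822.

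The constant exons were spliced in almost all reads. In the 9 tested SE events outside the block, ∆PSI was at most 0.302 points in either direction. Exon 3 was the constant exon most often skipped, with 34, 28 and 18 reads from exon 2 to exon 4 in control and 28, 36 and 24 in SAM68 libraries, and a PSI of 97.2% ± 0.872 and 97.1% ± 0.814 (SD, n = 3 each). A join from exon 2 to a site inside exon 17 had 10, 2 and 15 reads in control and 8, 12 and 5 in SAM68 libraries. Of the 25 junctions counted in the block 18 are in an annotated CD44 transcript. The 7 others had at most 15 reads each, and the one with 15 was v8 to exon 15.

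The partners of CD44 were read at the level of junction reads. Of 23 listed genes for hyaluronan synthesis and breakdown, ligands, co-receptors, actin linkers and sheddases, 14 were tested and 0 were called in either direction, beside 0.0493% of all genes tested. The median log2 fold change was -0.07, beside -0.03 over all genes tested, and 5 were higher and 9 lower. The largest values were those of ERBB2, a receptor tyrosine kinase that associates with CD44, and ADAM10, a protease that sheds CD44. ERBB2 had 9.83, 13 and 16.6 rpm in control and 25.2, 20.9 and 13.9 rpm in SAM68 libraries (log2 fold change 0.58 ± 0.22, SE; adjusted p = 0.250, limma). ADAM10 had 56.4, 40.3 and 38.5 rpm against 27.5, 30.6 and 39.8 rpm (-0.45 ± 0.15; adjusted p = 0.181). Both overlapped between the groups. Rpm did not overlap for 3 of the 14 (HMMR, SPP1 and MET, all lower in the SAM68 libraries), beside 16.8% of all genes tested.

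Of 17 genes known to regulate CD44 splicing in other cells, 14 were tested and 0 were called, again beside 0.0493% of all genes. The median log2 fold change was -0.01, with 6 higher and 8 lower. RBFOX2, which binds beside alternative exons, had 42.2, 35.8 and 30.3 rpm in control and 46.1, 43.7 and 47.7 rpm in SAM68 libraries (0.35 ± 0.13, SE; adjusted p = 0.234, limma). TRA2B, an SR-related activator of exons, had 401, 376 and 376 rpm against 308, 325 and 354 rpm (-0.23 ± 0.06; adjusted p = 0.0805). Rpm did not overlap between groups for these genes, SRSF1 and PTBP1, 4 of the 14, of which 2 were higher and 2 lower, again beside 16.8% of all genes. ESRP1, the epithelial factor that promotes CD44 variant exons, was at 0.167 to 0.345 rpm in control and 0 to 0.183 rpm in SAM68 libraries, below the minimum for the test.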

How the data were processed

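Per the labels and the study's methods, RNA was sequenced as paired-end reads. The submitters' processing notes name CASAVA 1.4, fastp 0.20.0, HISAT2 2.1.0 and GRCh38, and the methods name rMATS. The authors deposited 1 rMATS table per type of event, with counts of junction reads for both forms as lists of 3 values per group, effective lengths, inclusion levels, and the p-values, FDR and level differences of their own test, which were not used. The lists print no replicate numbers. The first list was taken as control and the second as SAM68 from a splicing plot of the study, and KHDRBS1 reads checked this. Of the A3SS events, 162 with regrouped digits were recovered and 113 left out; none is of CD44.

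PSI was computed from the deposited counts. Over all genes, events averaging 10 or more reads were tested with a quasi-binomial model, dispersion moderated with limma 3.58.1 in R 4.3.3, and Benjamini-Hochberg adjustment within type. The prior was infinite in each type, which gave each type a common dispersion (2.30 in SE events). Gene levels were tested with limma on log2(rpm + 0.5) in place of the planned count model, which was not run. Junctions were read from skipping and splice-site counts, which were the same in all rows that list a junction. In 25 of 30 checks an inclusion count equalled the sum of its 2 junctions, and it differed by at most 2 reads in the others. Scripts were tested on simulated data. Strand was not given in the sources used here, so antisense reads cannot be told apart. Named partners and regulators were those called, or the 2 with the largest change per list. The members and lists were chosen with earlier results of these data known.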

Additional observations from a re-analysis of the deposited data

How the results depend on the processing

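No paired analysis was possible because the lists of counts carry no replicate numbers. Of 236 alternative values, 220 kept their direction and their side of the threshold. The count of CD44 events called was 0 under every alternative but 1: a likelihood ratio test on pooled counts, which ignores the spread between libraries, called 1 event, v10 between v8 and exon 15 (∆PSI 17 points, adjusted p = 0.0413), and called 1354 events in all against 62. Over all genes, 2 events were called when each kept its own dispersion and 3 when limma was run on logit PSI. V3 use turned from -0.0922 to 0.0973 points when all tested events of v3 were summed, and the same sum moved v6 from -0.144 to -0.306, v8 from -0.186 to -0.463 and v9 from 0.0958 to 0.725 points. Without length normalization the use of v2 to v10 kept its direction. Leaving out 1 library at a time moved v2 between -1.31 and 10.3 points, v3 between -0.254 and 0.0767, v6 between -0.360 and 0.0662, v7 between -0.0563 and 0.0787, v4 between 0.00487 (without SAM68 library 3) and 0.164, v9 between 0.0355 (without SAM68 library 2) and 0.144, v10 between 0.361 and 1.04, v5 (not tested, 0 without SAM68 library 2) between -32.7 and 0, and the share of direct joins between -0.768 and 0.214 points. V2 turned without SAM68 library 3, v3 without control library 2 or SAM68 library 2, v6 without control library 2 or SAM68 library 3, v7 without control library 1, control library 3 or SAM68 library 1, and the share without SAM68 library 1. The v10 share among variant exon reads, with alternatives added after seeing the data, stayed 15.7 to 23.8 points higher. CD44 and KHDRBS1 levels ranged over 0.01 to 0.10 and 1.96 to 2.00 (log2) when libraries were left out. The planned negative binomial models, their normalization and the interaction model were not run; limma and the quasi-binomial model were fitted to the split lists. The lowest-count choice for junctions changed nothing, as no rows differed. Depth limits the block: its tested events had a median of 36 reads per library, and 18 of 69 events were too shallow.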

Other observations

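Among the listed partners and regulators of CD44, 1 of 117 tested events of the partners (in EZR) and 1 of 121 of the regulators (in HNRNPM) were called, beside 0.0934% of all tested events, although neither gene's junction read level was. EZR encodes ezrin, which links the CD44 tail to actin. Its pair listed as exclusive at chr6:158787108-158787203 (GRCh38) had a PSI of 57.2%, 54.6% and 61.1% in control and 47.7%, 51.0% and 43.1% in SAM68 libraries (∆PSI -10.3 points, adjusted p = 1.03e-12 in the quasi-binomial test moderated with limma), without overlap. In MXE rows PSI compares the junction counts of 2 exons and does not show that they exclude each other. CD44 exon 2 against exon 3 had a mean of 61.7% in control, although exon 3 had 97.2% as a skipped exon. Whether the exons of the pairs named here replace each other was not tested. HNRNPM encodes an RNA-binding protein known to favour skipping of CD44 variant exons in mesenchymal cells. Its pair listed as exclusive at chr19:8465324-8465362 had 40.1%, 22.7% and 29.8% in control and 20.1%, 0.537% and 0.546% in SAM68 libraries. SAM68 library 1 stood apart from the others of its group and was near control library 2. The means were 30.85% ± 8.73 and 7.06% ± 11.3 (SD, n = 3 each; ∆PSI -23.8 points, adjusted p = 6.09e-10 in the same quasi-binomial test). The p-values of EZR and HNRNPM use 1 dispersion common to all MXE events (2.53) and not the spread of the event itself. KHDRBS1 also had 1 called event, a pair listed as exclusive at chr1:32036910-32037043, with 70.5%, 67.1% and 67.2% against 84.2%, 83.3% and 83.5%. Whether reads of the transfected plasmid enter this event was not tested.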
